A study of Mus musculus with 13 samples.

Results

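The 6 genes of fuel handling, Phyhd1, Pdk4, Plin4, Hif3a, Angptl4 and Cpt1a, were followed across the cell types of the mouse hippocampus under dietary restriction. All 6 were found by symbol among the 32285 genes of the deposited matrices. They were picked from earlier results of the same data, in which most of them were raised in oligodendrocyte nuclei of restricted mice. Their values in oligodendrocyte-like nuclei are therefore a description, and only nuclei of other classes gave tests that the choice had not used.

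The study sequenced RNA from single nuclei of whole frozen hippocampus, stained with Hoechst dye and sorted, of female hybrid mice, written C3HB6F1 in the sample labels and C3B6F1 in the design text. The labels give 4 groups. Young ad libitum animals were 5 months old (3 libraries) and old ad libitum animals 24 months old (3 libraries). Acute restriction began at 20 months (3 libraries) and long-term restriction at 5 months of age (4 libraries), and both restricted groups were 24 months old at sampling, so duration and age at onset cannot be told apart. The labels give no degree of restriction and no feeding or sampling hour, and they do not say how many mice each library holds, so p-values below measure the spread between these libraries only.

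When food is scarce, many tissues burn less glucose and more fatty acid. Pyruvate dehydrogenase kinases close the step by which pyruvate enters the citric acid cycle, perilipins coat the lipid droplets in which fat is stored, and carnitine palmitoyltransferases bring long-chain fatty acids into mitochondria. Oligodendrocytes, the cells that make central myelin, hold much of the lipid of the brain and pass metabolic fuel to axons.

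In the sums of oligodendrocyte-like nuclei, Phyhd1, Pdk4, Plin4 and Hif3a were each higher in all 3 acute libraries than in all 3 old ad libitum libraries, by between 2.51 and 3.34 on the log2 scale. Under long-term restriction Phyhd1, Pdk4 and Hif3a lay below every acute library, and Plin4 did so in 3 of 4 libraries. Cpt1a was low (0 to 11.2 CPM, UMIs per 1000000), and Angptl4 was nearly absent, with 2 UMIs in all. Among the 8 classes tested, Plin4 alone of the 6 genes had its highest mean level in oligodendrocyte-like nuclei. In those classes the highest level of Phyhd1 was in microglia-like nuclei and that of Hif3a, Cpt1a and Angptl4 in astrocyte-like nuclei. Pdk4 was higher in astrocyte-like than in oligodendrocyte-like nuclei in all 10 libraries of the other groups and lower in all 3 acute libraries. As far as levels go, the data thus go against the name of an oligodendrocyte program for all of the 6 genes but Plin4. For Pdk4 this holds outside the acute libraries, which the choice of genes had used.

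The matrices hold 105759 barcodes and 742437104 unique molecular identifiers (UMIs, 1 per captured molecule), of which 98041 nuclei were kept after filters and removal of 7386 likely doublets. Library totals ran from 38546292 to 80538090 UMIs, and 1358 barcode sequences occurred in more than 1 library, 4 to 40 per pair of libraries. Clusters were named from marker genes, which gave 8 classes with enough nuclei to test. The oligodendrocyte-like class was 1 cluster of 10029 nuclei with a median of 1883 UMIs. All 13 of its markers, among them Mbp and Mog, were detected in every group, at a summed 19319 to 23995 per 1000000 UMIs. The 4 libraries numbered 1, which are 1 of each group, stood apart. They gave 47 to 186 oligodendrocyte-like nuclei (0.609 to 3.16% of their nuclei), against 624 to 1653 (8.06 to 22.9%) in the other 9 libraries, so the differences in oligodendrocyte-like nuclei are also given without them.

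Levels are UMIs of a gene per 1000000 UMIs of the class in 1 library (CPM, scaled by edgeR's TMM factors). Differences are log2 fold changes of edgeR's quasi-likelihood fit over all 13 libraries. Their standard error (SE) is approximate: the fold change divided by the square root of the F statistic of its test. The acute, long-term and ageing differences all share the 3 old ad libitum libraries. In bulk sums of a class, fewer transcribing nuclei and less RNA per nucleus cannot be told apart.

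Pdk4 (chr6:5483351-5496309, minus strand, GRCm38) encodes the pyruvate dehydrogenase kinase best known for its induction by fasting. Its CPM was 11.8, 6.98 and 8.22 in the old ad libitum libraries, 55.96, 31.9 and 56.04 in acute libraries, and 15.96, 18.9, 10.2 and 17.8 in long-term libraries. The young ad libitum libraries had 10.2, 20.1 and 17.7. All acute libraries lay above all others, 3 of the 4 long-term libraries lay above the old ad libitum ones, and the young libraries overlapped with both. The difference from old ad libitum was 2.51 ± 0.30 (SE) for acute and 0.98 ± 0.32 (SE) for long-term diet. Pdk4 was lower in old than in young ad libitum libraries, at -1.21 ± 0.39 (SE), with overlapping groups.

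Plin4 (chr17:56100591-56109803, minus strand) encodes perilipin 4, a coat protein of lipid droplets. Its CPM was 11.8, 11.1 and 10.95 in old ad libitum, 41.0, 78.1 and 67.7 in acute, and 47.9, 15.4, 19.4 and 26.7 in long-term libraries, and 20.5, 8.92 and 2.95 in young ones. The acute libraries overlapped with the long-term group through 1 long-term library, number 1, which had 186 nuclei and 15 UMIs of Plin4. The differences from old ad libitum were 2.62 ± 0.29 (SE) and 1.02 ± 0.31 (SE). Plin4 overlaps Hdgfl2 on the opposite strand, and whether the counting used strand is not given in the sources used here, so reads of both genes may be mixed. The Hdgfl2 count itself ran from 30.3 to 47.1 CPM in old ad libitum and from 22.4 to 43.5 CPM in acute libraries, a difference of 0.15 ± 0.23 (SE).

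Phyhd1 (chr2:30266203-30282149, plus strand) encodes a dioxygenase related to phytanoyl-CoA hydroxylase, the enzyme that starts the breakdown of branched fatty acids. Its CPM was 5.89, 7.85 and 8.22 in old ad libitum, 41.0, 84.3 and 50.2 in acute, and 28.7, 19.4, 20.9 and 26.1 in long-term libraries. The young ad libitum libraries had 0, 4.46 and 9.84. The 3 old diets formed 3 bands without overlap, and the young libraries overlapped with the old ad libitum ones. The differences from old ad libitum were 3.01 ± 0.29 (SE) and 1.51 ± 0.30 (SE). The gene models Gm28035 and Gm28038 of the annotation overlap Phyhd1 on its strand and are not among the genes of the matrices.

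Hif3a (chr7:17031507-17062427, minus strand) encodes an alpha subunit of the hypoxia-inducible factors, some forms of which restrain the other family members. Its CPM was 23.6, 13.1 and 16.8 in old ad libitum, 134, 168 and 161 in acute, and 112, 36.8, 40.4 and 72.99 in long-term libraries, and 20.5, 7.80 and 8.86 in young ones. Old ad libitum, long-term and acute libraries formed 3 bands without overlap, and 1 young library, on 2 UMIs, reached the old ad libitum range. The differences from old ad libitum were 3.34 ± 0.32 (SE) and 1.85 ± 0.32 (SE). Old minus young ad libitum was 0.78 ± 0.54 (SE), on 2 to 9 UMIs per young library.

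Cpt1a (chr19:3322334-3385733, plus strand) encodes the carnitine palmitoyltransferase of the outer mitochondrial membrane. Its CPM was 2.95, 4.07 and 3.13 in old ad libitum, 11.2, 8.79 and 5.83 in acute, and 3.19, 1.99, 2.55 and 4.75 in long-term libraries, and 0, 5.57 and 3.94 in young ones. The acute libraries lay above the rest, on 3 to 27 UMIs each, and the long-term and old ad libitum libraries overlapped. Cpt1a passed the filter on low counts only through the acute libraries, where it was high. The acute difference was 1.09 ± 0.45 (SE) and the long-term one -0.24 ± 0.50 (SE).

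Angptl4 (chr17:33773750-33781830, minus strand) encodes a secreted inhibitor of lipoprotein lipase. Oligodendrocyte-like sums held 0 UMIs of it in 12 libraries and 2 UMIs (0.897 CPM) in acute library 3, and it did not pass the filter on low counts. No direction can be read for it in this class.

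**Figure D1:**
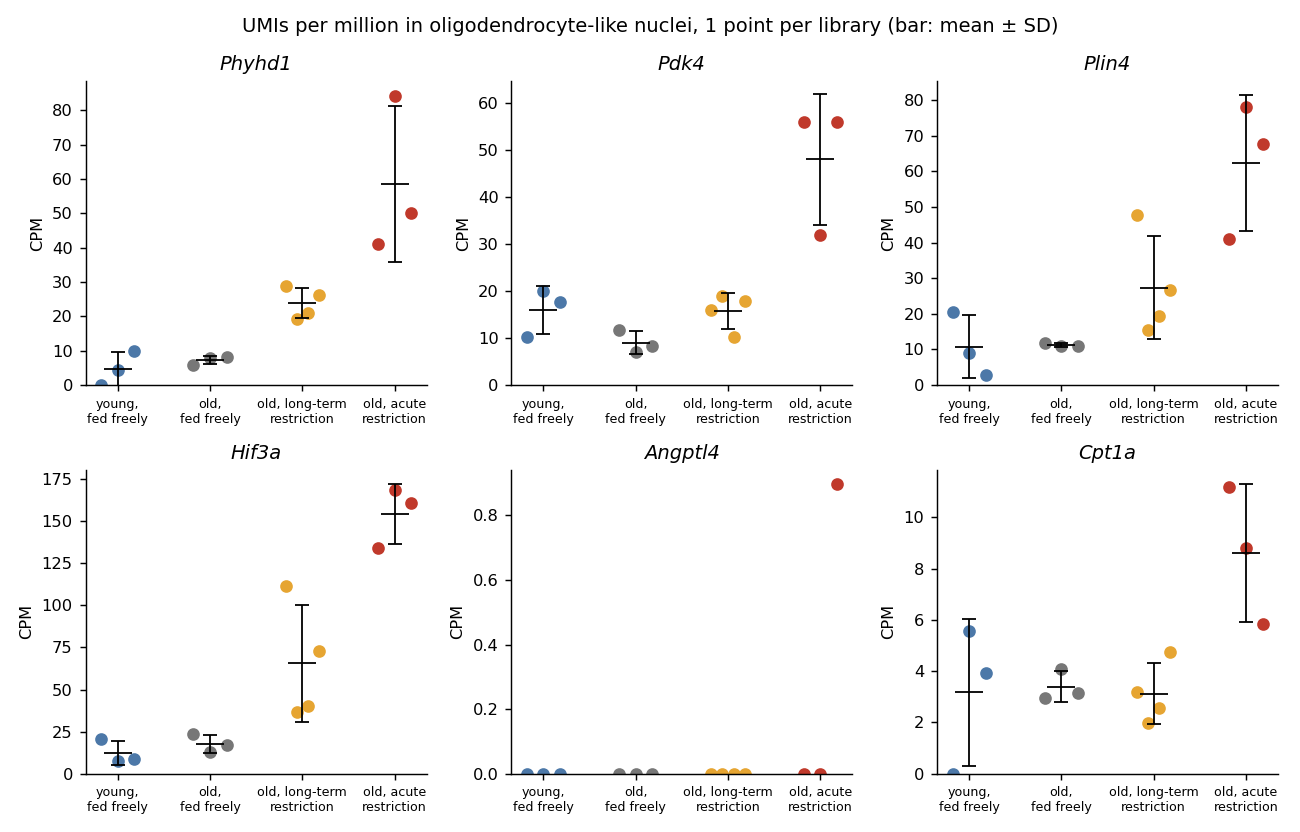
Level in CPM (UMIs per 1000000, y axis) of each gene in oligodendrocyte-like nuclei by group (x axis; fed freely means ad libitum), with 1 point per library and bars for mean ± SD (no bar for Angptl4). The acute points of Phyhd1, Pdk4 and Hif3a lie above all others, while 1 long-term library of Plin4 reaches 47.9 CPM, and Angptl4 is above 0 in 1 library.

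Between acute restriction and old ad libitum, 5 of the 6 genes had groups that did not overlap, all higher under acute restriction, where 9.2% of the 11330 genes tested were higher without overlap. At an adjusted p below 0.05, 4 of the 5 genes tested were called higher (Hif3a, Phyhd1, Pdk4 and Plin4), beside 0.856% of all genes. For long-term restriction, 3 genes (Hif3a, Phyhd1 and Plin4) were higher than old ad libitum without overlap (4.48% of all genes) and 2, Hif3a and Phyhd1, were called (0.106% of all genes called higher). That count was 0 without old ad libitum library 2 or 4 and 1 without long-term library 2 or 4. Between young and old ad libitum no gene was free of overlap, and edgeR called 0 of 5 in either direction (6.28% of all genes). At an unadjusted edgeR p below 0.05 there was 1 of 5, beside 2405 of all 11330 genes. DESeq2 called 0 but gave no adjusted p for Cpt1a. Without long-term library 3 the edgeR count was 1, Pdk4 (-1.20 ± 0.38, SE). Since the genes were chosen on these libraries, nothing is read from these counts.

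Acute restriction, started at 20 months, gave the higher levels of the 2 restrictions. Long-term restriction had lower values without overlap for 4 genes (Cpt1a, Hif3a, Pdk4 and Phyhd1, beside 2.69% of all genes), while the Plin4 libraries overlapped. At an adjusted p below 0.05, 4 were called (Phyhd1, Plin4, Pdk4 and Hif3a), beside 0.0794% of all genes called lower. That count was 1 without acute library 2, 2 without acute library 3, and 1 with DESeq2. The long-term minus acute difference was -1.52 ± 0.26 (SE) for Pdk4, -1.59 ± 0.25 for Plin4, -1.50 ± 0.23 for Phyhd1, -1.49 ± 0.25 for Hif3a and -1.33 ± 0.45 for Cpt1a. The order old ad libitum, long-term, acute held in the means of log2 CPM for 4 of 6 genes. By those means, long-term restriction had 56.0% of the acute difference for Phyhd1, 55.5% for Hif3a, 46.5% for Plin4 and 32.1% for Pdk4. Both restricted groups share the old ad libitum libraries in these percentages. They are ratios of log2 differences with a prior count of 2, depend on that scale and carry no spread. The fitted long-term and acute differences were 1.02 and 2.62 for Plin4 and 0.98 and 2.51 for Pdk4.

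**Figure D2:**
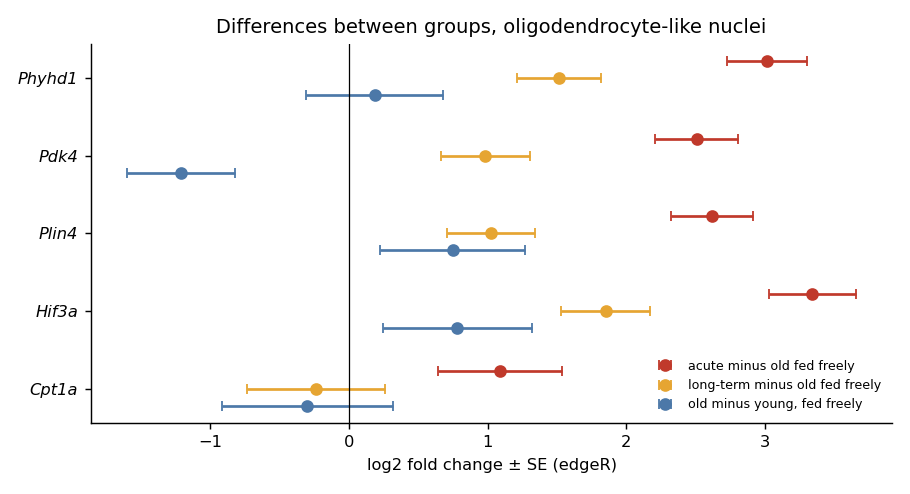
Log2 fold change from edgeR ± approximate SE (x axis) of the 5 genes tested in oligodendrocyte-like nuclei (y axis), for acute restriction (red), long-term restriction (yellow) and age (blue, old minus young ad libitum). For Phyhd1, Pdk4, Plin4 and Hif3a the acute value (2.51 to 3.34) lies right of the long-term one (0.98 to 1.85), and for Cpt1a the long-term value is -0.24.

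Without the 4 libraries numbered 1, the acute differences were 3.03 ± 0.29 (SE) for Phyhd1, 2.47 ± 0.32 for Pdk4, 2.68 ± 0.26 for Plin4, 3.42 ± 0.26 for Hif3a and 0.97 ± 0.47 for Cpt1a. The long-term differences were then 1.42 ± 0.31 for Phyhd1, 1.01 ± 0.34 for Pdk4, 0.85 ± 0.28 for Plin4 and 1.71 ± 0.26 for Hif3a. Long-term minus acute came to -1.61 ± 0.23 for Phyhd1, -1.46 ± 0.27 for Pdk4, -1.83 ± 0.22 for Plin4 and -1.72 ± 0.21 for Hif3a.

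Depth moved with the groups. The median UMIs per oligodendrocyte-like nucleus ran from 1988 to 3144 in old ad libitum, 1577 to 1888 in acute, 1671 to 2298.5 in long-term and 1181 to 1661 in young libraries. With the log2 median as a covariate, the acute differences were 3.35 for Phyhd1, 2.13 for Pdk4, 2.53 for Plin4 and 3.30 for Hif3a. The number called then stayed at 4 under acute restriction and went from 2 to 1 under long-term restriction (Hif3a lost) and from 4 to 1 between the restrictions (Phyhd1 kept). With this covariate the long-term differences were 1.62 ± 0.31 (SE) for Phyhd1, 0.86 ± 0.33 for Pdk4, 0.99 ± 0.34 for Plin4 and 1.84 ± 0.36 for Hif3a. Long-term minus acute was -1.72 ± 0.28 for Phyhd1, -1.27 ± 0.30 for Pdk4, -1.54 ± 0.31 for Plin4 and -1.47 ± 0.32 for Hif3a. Among all genes the calls fell from 28 to 5 and from 12 to 6. Markers of other cells were also present in the oligodendrocyte-like sums. All 10 astrocyte markers were detected, at a summed 333 to 376 per 1000000 UMIs in old ad libitum, 364 to 422 in acute, 338 to 541 in long-term and 263 to 554 in young libraries. All 9 microglial markers summed to 34.7 to 52.2 in old ad libitum and 45.5 to 69.5 in acute libraries, and the macrophage markers Pf4 and Ms4a7 were at 0 in every group. Of the 15 marker lists of other cells, 3 separated acute from old ad libitum libraries, all lower under acute restriction. The 11 inhibitory neuron markers summed to 2255 to 2820 in old ad libitum and 1935 to 2122 in acute libraries, and the 8 committed precursor markers to 1104 to 1193 and 956 to 1064. The Cajal-Retzius markers, with Lhx5 at 0 in both groups, summed to 16.2 to 26.9 and 3.79 to 15.7. The part of RNA of other cells in the differences was not tested.

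Per nucleus, the genes were found in a minority of oligodendrocyte-like nuclei. Each nucleus was thinned to 1000 UMIs, leaving out 36 shallower nuclei in old ad libitum, 76 in acute, 35 in long-term and 218 in young libraries. Hif3a then had a UMI in 13.5 to 15.5% of acute nuclei by library, 0.943 to 1.77% of old ad libitum, 3.29 to 8.38% of long-term and 0.670 to 2.13% of young nuclei. No long-term library reached the acute ones, and the young and old ad libitum libraries overlapped. The mean shares for Phyhd1 were 5.83% ± 2.05 (SD, n = 3) in acute, 0.778% ± 0.177 (SD, n = 3) in old ad libitum and 2.28% ± 0.635 (SD, n = 4) in long-term libraries.

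For Plin4 the mean thinned share was 5.59% ± 2.05 (SD, n = 3) in acute, 1.17% ± 0.276 (SD, n = 3) in old ad libitum and 2.53% ± 1.18 (SD, n = 4) in long-term libraries. For Pdk4 it was 4.36% ± 1.01 (SD, n = 3), 0.725% ± 0.226 (SD, n = 3) and 1.34% ± 0.440 (SD, n = 4). Both genes thus had their lowest acute library (3.23% and 3.28%) above every old ad libitum one, though the lowest acute share of Plin4 lay below the highest long-term one (3.91%). Unthinned, the pooled shares were 23.8% for Hif3a, 11.7% for Plin4, 11.3% for Phyhd1 and 7.05% for Pdk4 under acute restriction, and 3.23, 2.33, 1.69 and 1.72% in old ad libitum nuclei.

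Granule-like neurons served as the cells with little Hif3a, Plin4 and Pdk4. Their median depth was 6350 UMIs before thinning, against 1883 in oligodendrocyte-like nuclei. At 1000 UMIs their pooled shares by group were 0.178 to 0.270% for Hif3a, 0.0193 to 0.127% for Plin4 and 0 to 0.0142% for Pdk4, where 0 of 11796 young nuclei allows a share of up to 0.0254%. For Phyhd1 they are no such background, since granule-like neurons held more of it: their thinned share was 1.59 to 2.35%, against 0.728% in old ad libitum and 0.756% in young oligodendrocyte-like nuclei. All 8 classes held UMIs of Phyhd1, so no class that lacks the gene can be set beside its shares. These limits cover counting error only.

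**Figure D3:**
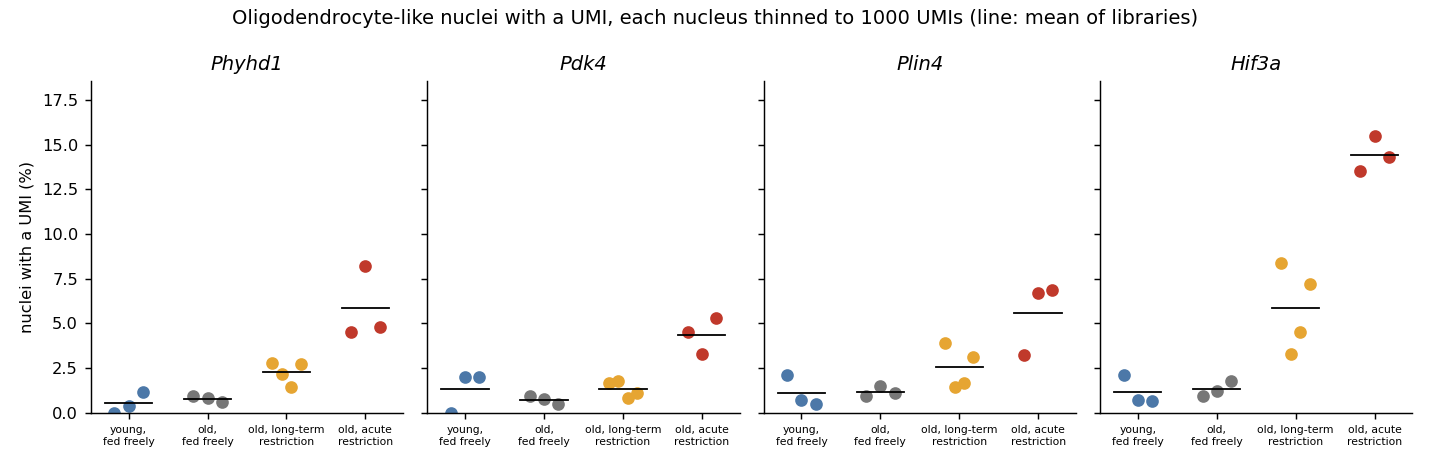
Share of oligodendrocyte-like nuclei with at least 1 UMI of each gene (y axis, %), after each nucleus was thinned to 1000 UMIs, by group (x axis), with 1 point per library and a line at the mean. The acute Hif3a points lie between 13.5 and 15.5%, and the highest old ad libitum point is at 1.77%.

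Few nuclei held UMIs of more than 1 of the 4 genes, each of which was itself found in a minority of nuclei. The overlap expected from the single-gene shares was not computed, so nothing is read about whether the genes share nuclei. At full depth, at least 1 of Phyhd1, Pdk4, Plin4 and Hif3a was seen in 43.6% of 3008 acute nuclei, 19.5% of 2828 long-term nuclei, 8.58% of 2784 old ad libitum nuclei and 5.39% of 1409 young nuclei. At least 2 of them were seen in 9.08, 1.56, 0.395 and 0.142%. Depth and level both set such shares, and nuclei of a group share their libraries. Where Hif3a was detected at all, a nucleus held on average 1.27 UMIs under acute restriction and 1.07 in old ad libitum.

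Over the 13 oligodendrocyte-like sums, the log2 CPM of Plin4 and Hif3a had a Pearson r of 0.940 and those of Phyhd1 and Hif3a of 0.796, while Cpt1a and Plin4 had the lowest, 0.325. These values include the differences between groups and are a description. A mean profile was taken over those of the 6 genes that passed the filter, all but Angptl4. Outside the 6 genes, the profiles most like it were those of St3gal3 (r = 0.950, 13 libraries), Ankrd13a (0.932), Htra1 (0.911), Ranbp9 (0.905) and Gm22146 (0.891). Their acute differences were 0.87, 0.92, 1.70, 0.46 and 3.18, in that order. Gm22146 lies within Fkbp5 on the opposite strand in the annotation, so reads of these genes may also be mixed.

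The windows around the start sites of the genes that were high together are shown with the hexamer AGGTCA, the core to which PPAR and other nuclear receptors bind, or its reverse complement in capitals. The sequences are RefSeq's for GRCm38.p6, 250 bases before to 50 after each start, read 5′ to 3′ on the strand of the gene, and 5 of the 6 genes had an entry. Phyhd1 has 3 windows. The first (chr2:30265953-30266252), around the start of the gene in the annotation, holds no match. The second and the third overlap and hold the same match. The second is shown (chr2:30266471-30266770), with Pdk4 (chr6:5496229-5496528), Plin4 (chr17:56109733-56110032), Hif3a (chr7:17062378-17062677) and Cpt1a (chr19:3323051-3323350).
Phyhd1: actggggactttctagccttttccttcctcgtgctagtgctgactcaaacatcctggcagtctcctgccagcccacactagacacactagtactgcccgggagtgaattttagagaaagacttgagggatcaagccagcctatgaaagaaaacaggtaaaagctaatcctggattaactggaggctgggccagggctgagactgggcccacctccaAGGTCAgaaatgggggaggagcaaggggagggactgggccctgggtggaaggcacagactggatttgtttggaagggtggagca
Pdk4: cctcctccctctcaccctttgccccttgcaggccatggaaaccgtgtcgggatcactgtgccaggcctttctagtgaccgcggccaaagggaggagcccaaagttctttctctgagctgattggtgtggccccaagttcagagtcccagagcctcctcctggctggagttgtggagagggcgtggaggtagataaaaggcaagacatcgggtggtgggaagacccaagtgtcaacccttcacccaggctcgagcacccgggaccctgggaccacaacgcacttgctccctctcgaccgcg
Plin4: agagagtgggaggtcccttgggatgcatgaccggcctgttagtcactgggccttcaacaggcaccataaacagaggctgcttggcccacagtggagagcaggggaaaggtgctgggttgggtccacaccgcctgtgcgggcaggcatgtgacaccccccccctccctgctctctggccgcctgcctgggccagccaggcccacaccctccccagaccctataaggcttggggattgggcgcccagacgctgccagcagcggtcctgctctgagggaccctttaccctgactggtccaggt
Hif3a: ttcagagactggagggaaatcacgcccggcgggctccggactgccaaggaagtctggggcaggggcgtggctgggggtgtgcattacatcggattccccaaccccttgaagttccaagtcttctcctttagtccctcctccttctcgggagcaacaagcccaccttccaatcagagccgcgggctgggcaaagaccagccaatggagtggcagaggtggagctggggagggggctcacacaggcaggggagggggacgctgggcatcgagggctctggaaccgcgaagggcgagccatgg
Cpt1a: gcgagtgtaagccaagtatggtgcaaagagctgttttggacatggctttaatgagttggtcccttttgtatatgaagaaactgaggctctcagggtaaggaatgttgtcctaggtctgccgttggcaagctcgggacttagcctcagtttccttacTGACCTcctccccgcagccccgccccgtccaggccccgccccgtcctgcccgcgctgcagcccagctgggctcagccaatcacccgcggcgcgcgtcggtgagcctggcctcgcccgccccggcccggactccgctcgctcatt
AGGTCA, searched on both strands, lies at base 217 of the Phyhd1 window shown and, as TGACCT, at base 157 of the Cpt1a window, and 16.3% of all 32851 windows hold it. No member window holds the exact string ACGTG, a form of the hypoxia response core (19.6% of all windows), or the glucocorticoid receptor hexamer AGAACA (19.0%). None holds the exact forkhead string TGTTTAC (3.65%) or the E-box CACGTG (7.15%), which contains ACGTG. Other forms of these motifs were not searched for and may be present. Matches are letters in a window of 300 bases and not binding sites.

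Across classes the 6 genes had different homes. Over all 13 libraries, Plin4 was highest in oligodendrocyte-like nuclei (mean 27.9 CPM), above astrocyte-like nuclei (3.79) in 12 of 13 libraries, and at or below 0.664 CPM elsewhere. Pdk4 was seen in astrocyte-like and oligodendrocyte-like nuclei and at 0.196 CPM or less elsewhere, and the order of these 2 classes differed between the diets. In old ad libitum libraries the astrocyte-like mean was 25.8 CPM and the oligodendrocyte-like one 8.99, the former higher in 3 of 3 libraries. The astrocyte-like level was also the higher one in 3 of 3 young (25.6 against 16.01 CPM) and 4 of 4 long-term libraries (28.1 against 15.7 CPM). Under acute restriction the oligodendrocyte-like level (47.97 CPM) lay above the astrocyte-like one (19.95 CPM) in 3 of 3 libraries. In each group the difference went beyond the spread, and since the oligodendrocyte-like levels chose the gene, this is a description. In microglia-like nuclei, 0 UMIs of Pdk4, Plin4 or Angptl4 were found, which allows up to 1.14 CPM.

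Hif3a followed the order astrocyte-like (156 CPM), oligodendrocyte-like (62.7) and oligodendrocyte precursor-like (12.8), the first above the second and the second above the third in 13 of 13 libraries. From the precursor-like class down to microglia-like (5.94), CA1-like (5.59) and CA3-like nuclei (5.42), neighbours did not differ beyond their spread over all libraries, though in acute libraries the precursor-like level (35.6 CPM) lay above the microglia-like one in 3 of 3. Phyhd1 was highest in microglia-like nuclei (473 CPM), above astrocyte-like ones (70.3) in 13 of 13 libraries. Astrocyte-like nuclei lay above CA3-like ones (31.2) in 9 of 11 libraries, and CA3-like, oligodendrocyte-like (23.6), CA1-like (19.4) and granule-like nuclei (18.7) did not differ from their neighbours beyond the spread when all groups were pooled. The place of the oligodendrocyte-like class varied by diet. In old ad libitum libraries alone, the oligodendrocyte-like level of Phyhd1 (7.32 CPM) was the lowest of the 8 classes, and in acute libraries alone (58.5 CPM) it was the third, above CA3-like nuclei in 3 of 3 libraries.

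Cpt1a was highest in astrocyte-like nuclei (60.3 CPM, 43.0 to 102), above microglia-like ones (25.6) in 13 of 13 libraries. Microglia-like and precursor-like nuclei (22.6) did not differ beyond their spread over all libraries (microglia-like nuclei were higher in 3 of 3 acute libraries), and the latter lay above oligodendrocyte-like nuclei (4.46) in 13 of 13 libraries. Angptl4 was found mainly in astrocyte-like nuclei (7.88 CPM, 2.32 to 15.6). In classes with too few nuclei to test, pooled over all libraries, Cpt1a reached 101 CPM in 359 endothelial-like nuclei (85 UMIs, 95% Poisson interval 81.1 to 125, counting error only) and Angptl4 13.1 CPM in 776 fibroblast-like nuclei (26 UMIs, 8.53 to 19.1).

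**Figure D4:**
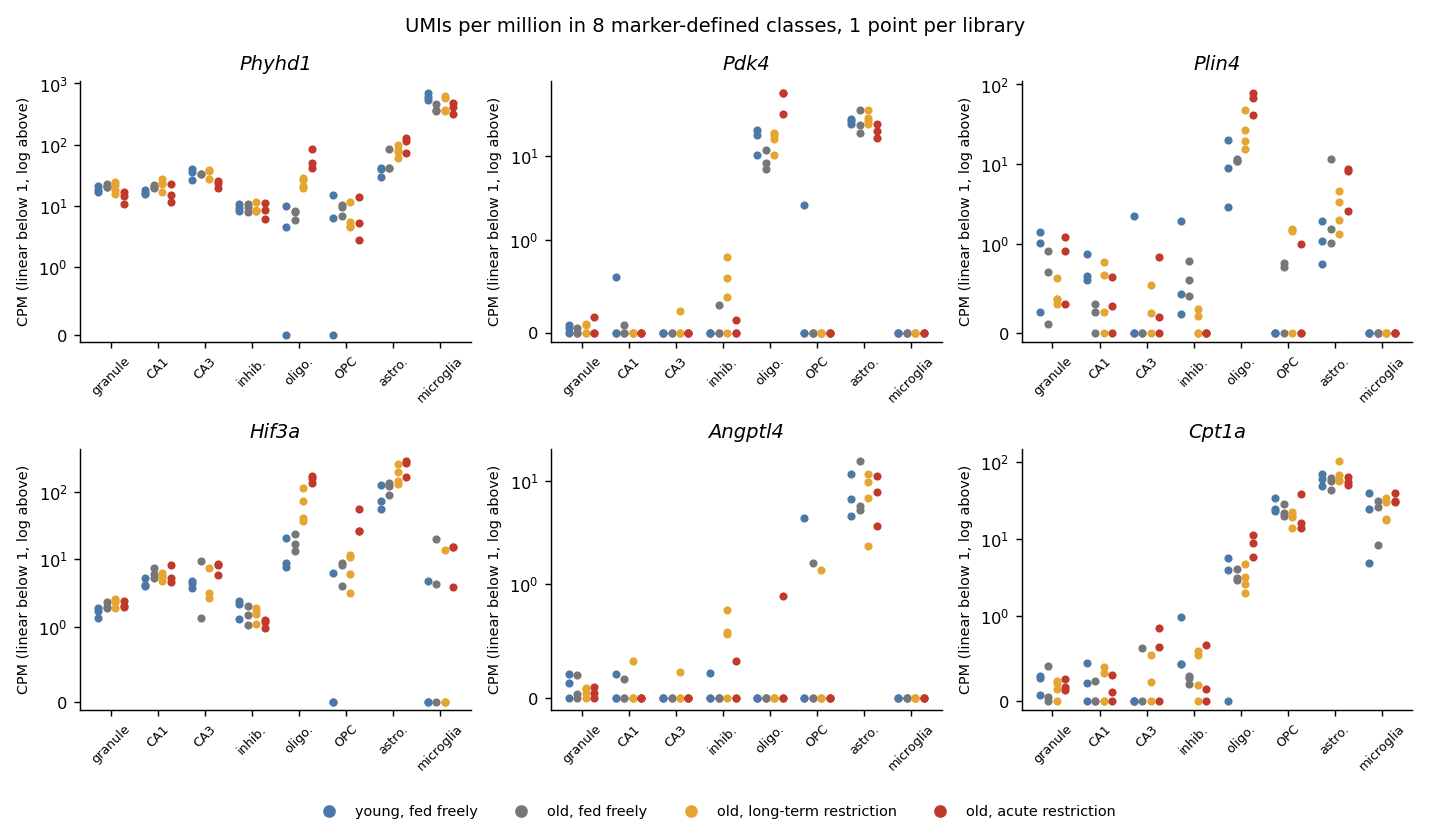
Level of each gene in CPM (y axis, linear below 1 and logarithmic above) in the 8 tested classes (x axis), with 1 point per library, coloured by group. Phyhd1 is highest in microglia-like nuclei (mean 473 CPM), Hif3a, Angptl4 and Cpt1a in astrocyte-like nuclei, and Plin4 in oligodendrocyte-like nuclei.

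Outside oligodendrocyte-like nuclei, which the choice of genes had used, 17 tests of a gene in 7 classes could be made for each comparison. edgeR called 1 of 17 under acute restriction (Hif3a in precursor-like nuclei), 0 under long-term restriction, 0 between the restrictions and 0 between old and young ad libitum. At an unadjusted edgeR p below 0.05 there were 5, 1, 4 and 1. Many genes of the classes that held them did so too. Under acute restriction these were 278 of 11245 in CA3-like, 691 of 11468 in astrocyte-like, 937 of 16849 in granule-like and 592 of 9138 in precursor-like nuclei. Under long-term restriction they were 610 in astrocyte-like nuclei. Between the restrictions they were 363 of 13287 in CA1-like, 138 in CA3-like, 416 in granule-like and 431 in precursor-like nuclei. Between old and young ad libitum they were 564 of 4270 in microglia-like nuclei. DESeq2 called 0 in each comparison. DESeq2 gave no adjusted p for 5 of the 17 tests under acute restriction, Hif3a in precursor-like nuclei among them (2.32 ± 0.57, SE), 2 under long-term restriction, 0 between the restrictions and 11 between old and young ad libitum, so its counts of 0 cover the other tests only. Few genes were called in these classes at all. Under acute restriction the share was 0.153% of genes in precursor-like, 0.0523% in astrocyte-like, 0.0234% in microglia-like and 0.0178% in granule-like nuclei and 0 in the other 3 classes. Under long-term restriction it was 0.0438% in precursor-like nuclei and 0 elsewhere, and between the restrictions it was 0 in all 7. Between old and young ad libitum it was 2.9% in granule-like, 2.01% in precursor-like, 1.78% in microglia-like and 0.366% in astrocyte-like nuclei and 0 in the other 3.

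The precursor-like class, the dividing cells from which oligodendrocytes arise, gave the call for Hif3a. Its CPM was 4.05, 8.69 and 8.21 in old ad libitum, 26.2, 25.8 and 54.6 in acute, 10.9, 6.08, 11.7 and 3.15 in long-term and 0, 0 and 6.35 in young libraries, on 0 to 54 UMIs each. The acute libraries lay above all others (6.64% of genes tested were higher than old ad libitum without overlap), and the long-term libraries overlapped with old ad libitum. In this class Hif3a passed the filter on low counts only through the acute libraries, where it was high. Its call there is therefore a description, though it was also called with no filter. With all 3 acute libraries above the old ad libitum ones, edgeR gave a difference of 2.29 ± 0.43 (SE, adjusted p = 0.0120). The call was kept in 16 of the 22 alternatives that gave an adjusted p, with differences from 1.72 to 2.48 and adjusted p from 9.35e-06 to 0.411. It was lost with old ad libitum library 1, 2 or 4 or acute library 3 left out (1.79 to 2.44, edgeR adjusted p from 0.0815 to 0.411), with the depth covariate (2.00, adjusted p = 0.188) and with the replicate number as a block (1.72, adjusted p = 0.0782). DESeq2 gave no adjusted p for it.

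Long-term libraries of Hif3a in precursor-like nuclei lay below the acute ones without overlap (2.86% of genes). Long-term minus acute was -2.16 ± 0.42 (SE, edgeR adjusted p = 0.0664), and it was called in 8 of 23 alternatives, among them the block (-1.97, adjusted p = 0.0264). Long-term minus old ad libitum was 0.13 ± 0.52 (SE, adjusted p = 0.988). Markers of oligodendrocytes in the precursor-like sums ran from 267 to 357 per 1000000 UMIs in old ad libitum, 259 to 382 in acute and 256 to 298 in long-term libraries. Of the 15 marker lists of other cells, 1 separated acute from old ad libitum libraries there, that of committed precursors (1887 to 1935 in old ad libitum, 1786 to 1850 in acute libraries). Their part in the difference was not tested. Cpt1a in the same nuclei differed by -0.12 ± 0.33 (SE, edgeR adjusted p = 0.992) under acute restriction.

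In astrocyte-like nuclei, the supporting glia of the tissue, all 6 genes could be tested. Hif3a had 132, 90.1 and 121 CPM in old ad libitum, 164, 282 and 268 in acute, and 252, 141, 127 and 197 in long-term libraries. The acute libraries were higher without overlap (6.52% of genes), at 1.05 ± 0.35 (SE, edgeR adjusted p = 0.570), and the long-term libraries overlapped with both. Without the libraries numbered 1 the acute difference was 1.45 and was called (edgeR adjusted p = 0.00113). Of the 15 marker lists of other cells, 2 separated acute from old ad libitum libraries in astrocyte-like sums, both lower under acute restriction. They were those of ependymal or choroid plexus cells and of subicular or cortical excitatory neurons, and their part in the differences was not tested.

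Phyhd1 in astrocyte-like nuclei had 41.6, 41.9 and 86.0 CPM in old ad libitum, 73.7, 115 and 127 in acute and 97.5, 60.4, 83.4 and 76.4 in long-term libraries, which overlapped. The acute difference was 1.11 ± 0.26 (SE, edgeR adjusted p = 0.222). It was called with no filter on low counts (1.10, adjusted p = 0.0164) and without the libraries numbered 1 (1.15, adjusted p = 0.0384). Pdk4 had 23.3, 18.9 and 35.2 CPM in old ad libitum, 19.5, 24.1 and 16.3 in acute and 25.7, 27.8, 34.8 and 23.9 in long-term libraries, so its groups overlapped, at -0.26 ± 0.26 (SE, edgeR adjusted p = 0.973) under acute restriction. Cpt1a differed by -0.01 ± 0.22 (SE, edgeR adjusted p = 1.00) and Angptl4 by 0.13 ± 0.55 (SE, adjusted p = 1.00). Plin4, on 1 to 12 UMIs per library, differed by 1.45 ± 0.78 (SE, edgeR adjusted p = 0.896).

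Phyhd1 was tested in neurons and microglia as well. In granule-like nuclei it had 20.2, 22.4 and 20.6 CPM in old ad libitum and 10.7, 14.3 and 17.1 in acute libraries, lower without overlap (8.34% of genes), at -0.58 ± 0.18 (SE, edgeR adjusted p = 0.545). In CA3-like nuclei it had 33.8 and 32.9 CPM in the 2 old ad libitum libraries with enough nuclei and 25.3, 19.5 and 24.0 in acute ones, lower without overlap (10.2% of genes), at -0.52 ± 0.25 (SE, edgeR adjusted p = 1.00). Its long-term CA3-like libraries (27.9, 38.8 and 36.8 CPM) lay above the acute ones (2.98% of genes), at 0.54 ± 0.22 (SE, edgeR adjusted p = 1.00). Between old and young ad libitum, old libraries of Phyhd1 lay above young ones without overlap in CA1-like nuclei (13.3% of genes), at 0.28 ± 0.23 (SE, edgeR adjusted p = 0.488), and in astrocyte-like nuclei (9.63% of genes), at 0.39 ± 0.28 (SE, adjusted p = 0.567). In microglia-like nuclei it had 696, 531 and 601 CPM in young and 354, 469 and 364 in old ad libitum libraries, lower in old ones without overlap (7.17% of genes), at -0.56 ± 0.23 (SE, edgeR adjusted p = 0.252). None of these differences passed the threshold.

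The other genes in neurons had few UMIs. Hif3a in granule-like nuclei was higher in old (1.93 to 2.34 CPM) than in young ad libitum libraries (1.34 to 1.89) without overlap (17.2% of genes), at 0.33 ± 0.23 (SE, edgeR adjusted p = 0.349). In 4 cases the groups did not overlap for a gene that did not pass the filter on low counts, so it was not tested. Plin4 in inhibitory neuron-like nuclei had 0 UMIs in the 3 acute libraries and 0 or 1 UMI in the 4 long-term ones, against 2 to 3 UMIs in each old ad libitum library (5.24% and 2.76% of genes were lower without overlap). Cpt1a there had 1 UMI in each old and 1 to 2 UMIs in each young ad libitum library, lower in old ones (10% of genes). Plin4 in CA1-like nuclei had 0 to 3 UMIs in old and 1 to 6 UMIs in young ad libitum libraries, lower in old ones (8.77% of genes). Counts of this size give no direction.

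The wider pathways of the 6 genes were read from 11 lists with 139 other genes, 107 of which passed the filter in oligodendrocyte-like nuclei. The lists were chosen with earlier results of these data known, so their values here are a description. Under acute restriction 8 of the 107 were called higher and 0 lower, beside 1.71% of all genes in either direction. Their median difference was 0.15, against 0.03 for all genes. Under long-term restriction 0 of 107 were called (0.247% of all genes), with a median of 0.07, and between the restrictions 0 (0.106% of all genes, median -0.08). At an unadjusted edgeR p below 0.05 these counts of 0 stood beside 11 and 13 of 107 genes. Of all 11330 genes, 962 and 608 were below it in these 2 comparisons, and 1257 under acute restriction. DESeq2 called 0 and 0 but gave no adjusted p for 79 of the 107 under long-term restriction.

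Between old and young ad libitum 2 of 107 list genes were called higher, beside 2.26% of all genes, so their share was no larger than the background. Both are named after their values were seen. Nr3c2, the mineralocorticoid receptor, differed by 0.76 ± 0.17 (SE, edgeR adjusted p = 0.00661) and Acaca, whose product makes the inhibitor of CPT1, by 0.51 ± 0.14 (SE, adjusted p = 0.0298). Both calls were lost with the depth covariate (0.50 and 0.40) and without young library 2 (0.66 and 0.42). Acaca was also lost with DESeq2 (0.50), with the replicate number as a block (0.43) and without old ad libitum library 2 or 4 (0.55 and 0.49).

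No other gene around pyruvate dehydrogenase passed the test. Of the 14 tested besides Pdk4, edgeR called 0 under acute restriction (median 0.15, 0 at an unadjusted p below 0.05), and the mitochondrial pyruvate carrier gene Mpc1 differed by 0.29 ± 0.15 (SE) and the phosphatase regulator Pdpr by 0.15 ± 0.17 (SE). Of 21 genes of mitochondrial fatty acid oxidation and its control besides Cpt1a, 0 were called (median 0.19, 2 unadjusted), with Etfa, which passes electrons on from the oxidation, at 0.00 ± 0.17 and Acaca at -0.08 ± 0.13 (SE). Of 4 genes of ketone body use, 0 were called (1 unadjusted), with Oxct1 at -0.05 ± 0.16 (SE).

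Lipid handling gave no further call. Of 9 genes of lipid droplets and lipolysis besides Plin4, 0 were called (median 0.21, 0 unadjusted), with the lysosomal lipase Lipa at -0.09 ± 0.22 and Plin3, another perilipin, at 0.27 ± 0.24 (SE). Of 11 genes of the lipoprotein lipase system and fatty acid uptake, 0 were called (median -0.00, 1 unadjusted), with Vldlr at -0.24 ± 0.14 and Acsl1 at 0.09 ± 0.18 (SE). Of 4 PPAR receptors and partners, 0 were called (median 0.01, 0 unadjusted), with Ppard at 0.18 ± 0.18 and Rxrb at -0.07 ± 0.30 (SE). Of 4 relatives of Phyhd1 and genes of alpha-oxidation, 0 were called (median -0.08, 0 unadjusted), with Aldh3a2 at 0.28 ± 0.27 and Hacl1 at -0.16 ± 0.27 (SE). DESeq2 called no gene of these lists either, among those for which it gave an adjusted p.

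Among regulators, 0 of 8 hypoxia-inducible factor genes and hydroxylases besides Hif3a were called (median -0.07, 0 unadjusted), with the partner subunits Arnt at -0.05 ± 0.15 and Arnt2 at -0.19 ± 0.16 (SE). Of 8 hypoxia response genes 1 was called, P4ha1, a collagen prolyl hydroxylase, at 1.01 ± 0.23 (SE, edgeR adjusted p = 0.0211). Its CPM was 67.8, 61.7 and 59.5 in old ad libitum, 168, 131 and 97.3 in acute and 63.8, 131, 64.4 and 81.3 in long-term libraries. The acute libraries thus lay above the old ad libitum range (9.2% of all genes were higher without overlap). The call was lost with the depth covariate (0.93, edgeR adjusted p = 0.385), without the libraries numbered 1 (0.88, adjusted p = 0.142), and without young library 1 or 3, old ad libitum library 2 or 4 or acute library 1 or 2 (0.85 to 0.98, adjusted p from 0.0517 to 0.186).

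Of 11 FoxO and insulin response genes 2 were called (median 0.23). Klf15, a transcription factor of fasting metabolism, had 26.5, 19.2 and 19.2 CPM in old ad libitum and 29.8, 37.1 and 44.4 in acute libraries, at 0.98 ± 0.22 (SE, edgeR adjusted p = 0.0151). Cdkn1a, an inhibitor of the cell cycle, had 5.89, 2.04 and 2.74 CPM in old ad libitum and 29.8, 12.04 and 9.42 in acute libraries, on 2 to 37 UMIs, at 2.26 ± 0.59 (SE, edgeR adjusted p = 0.0474). The acute and old ad libitum libraries did not overlap for either gene (9.2% of all genes were higher without overlap), which were named for calls on the same libraries. Klf15 was called in 17 of 23 alternatives and Cdkn1a in 8 of the 22 that gave an adjusted p. Klf15 was lost with DESeq2, the depth covariate and without old ad libitum library 2 or 4 or acute library 2 or 3 (0.79 to 1.05, adjusted p from 0.0785 to 0.236). Cdkn1a, with differences from 1.93 to 2.51 over its alternatives, reached an adjusted p of 0.538 with the depth covariate and was lost with the replicate number as a block (2.07, adjusted p = 0.0509), without the libraries numbered 1 (2.13, adjusted p = 0.0556), at Leiden resolution 0.5, in nuclei of at least 1000 UMIs and without any of 9 single libraries (each young and acute library, old ad libitum library 2 or 4, and long-term library 2).

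Of the 11 lists, the glucocorticoid response list had the highest median under acute restriction, 1.07 over 15 genes tested, with 13 of 15 above 0. In it 6 genes were called higher, beside 0.856% of all genes. Since the lists were chosen with earlier results known, nothing is read from its place among them. Nfkbia, an inhibitor of NF-kappaB, had 11.8, 7.85 and 4.30 CPM in old ad libitum and 44.8, 21.8 and 31.4 in acute libraries, at 2.08 ± 0.36 (SE, edgeR adjusted p = 0.00089). Per1, a clock gene that glucocorticoids induce, had 17.7, 13.7 and 10.95 CPM in old ad libitum and 44.8, 33.5 and 44.8 in acute libraries, at 1.61 ± 0.28 (SE, edgeR adjusted p = 0.00117). Fkbp5, a co-chaperone of the glucocorticoid receptor, had 85.4, 23.9 and 39.5 CPM in old ad libitum and 149, 189 and 252 in acute libraries, at 2.43 ± 0.45 (SE, edgeR adjusted p = 0.0273). Sgk1, a serum and glucocorticoid induced kinase, had 61.9, 36.7 and 30.5 CPM in old ad libitum and 254, 220 and 369 in acute libraries, at 2.93 ± 0.58 (SE, edgeR adjusted p = 0.0422). The acute and old ad libitum libraries did not overlap for any of these 4 genes (9.2% of all genes were higher without overlap). As the 4 were named for their calls on the same libraries, this is a description. The other called genes were Cdkn1a, which is also in the FoxO list, and Tsc22d3 (0.62 ± 0.17, SE, edgeR adjusted p = 0.0474), which comes after the 4 genes that the naming rule allows per list, is named after its value was seen and was called in 10 of 23 alternatives.

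With the depth covariate none of the 8 called list genes passed (Nfkbia 1.49, edgeR adjusted p = 0.201, and Per1 1.18, adjusted p = 0.218). Nfkbia and Per1 kept their calls in every other alternative that gave an adjusted p (DESeq2 gave none for Nfkbia). Fkbp5 was also lost without old ad libitum library 2 or 4 or acute library 2 or 3 (1.95 to 2.45, adjusted p from 0.0943 to 0.176). Sgk1 was called in 10 of 23 alternatives. It was lost with the replicate number as a block (3.05, edgeR adjusted p = 0.0714) and without any library but long-term 1 or 3 (2.61 to 3.09, adjusted p from 0.0574 to 0.253). The number of list genes called was 2 without old ad libitum library 2 or 4 or acute library 2, and 3 without acute library 3. It was 4 without young library 1 or 3, and 5 without young library 2, long-term library 2 or acute library 1. The long-term median of the glucocorticoid list was 0.25 and its long-term minus acute median -0.85.

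**Figure D5:**
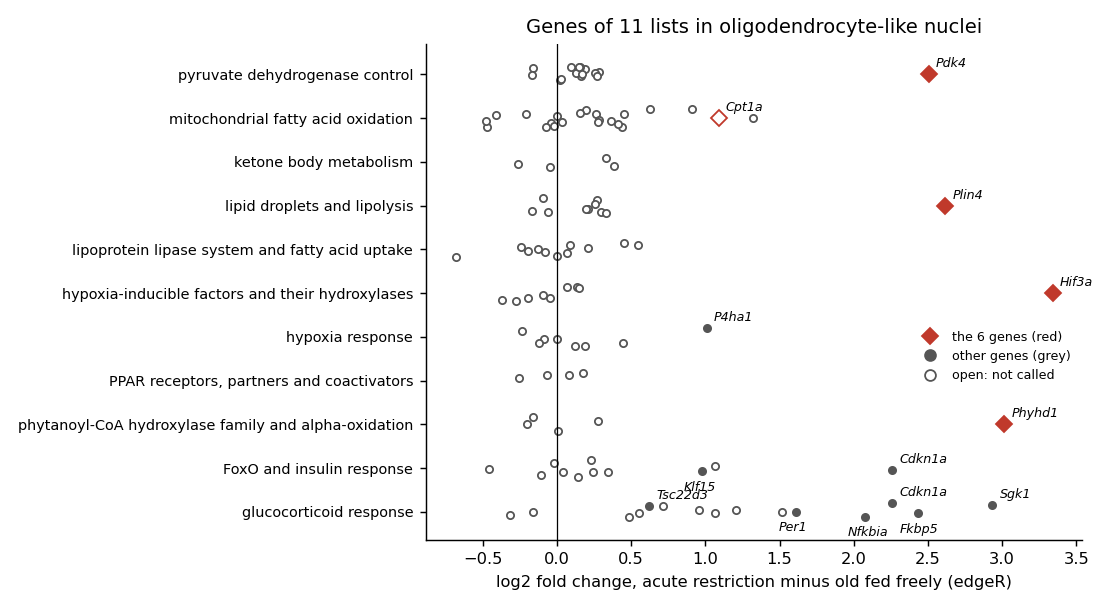
Log2 fold change under acute restriction (x axis, edgeR, oligodendrocyte-like nuclei) of the genes of 11 pathway lists (y axis), with diamonds for those of the 6 genes that were tested (Angptl4 was not), circles for the others and filled symbols for genes called at an adjusted p below 0.05. The 8 called genes are named beside their filled circles, and the glucocorticoid response list, with a median of 1.07, lies furthest to the right.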

How the data were processed

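Single-nucleus RNA sequencing libraries (10x) of 13 samples were read from filtered matrices of deposited UMI counts, which are whole numbers per gene and barcode with no normalization. The authors made these counts with Cell Ranger 4.0.0 and mm10, per the submitters' processing notes, and whether counting used strand is not given in the sources used here. The 6 genes and the pathway lists were chosen with earlier results of these data known.

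Kept barcodes had 500 or more genes and no more than 5% of UMIs from mitochondrial genes, and likely doublets, at 0.8% per 1000 barcodes, were removed. Nuclei were clustered with scanpy 1.11.5 (2000 variable genes, 30 principal components, 20 neighbours, Leiden resolution 1). A cluster took an "X-like" name from marker genes, and 26 of 43 clusters (20629 nuclei) stayed unnamed. The details of scoring (fold over other clusters, the marker rank among leading genes) were set after the clusters had been seen. Names rebuilt in this way may differ from the authors' own.

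Counts were summed per library and class (at least 20 nuclei, at least 2 libraries per group). The sums were tested with edgeR 4.0.16 in R 4.3.3 (TMM factors, legacy quasi-likelihood, Benjamini-Hochberg over all genes of a class, threshold 0.05, prior count 2 for log2 CPM), and with DESeq2 1.42.0 as an alternative, which gave no adjusted p for some genes. The legacy form was chosen on simulated data, where it made fewer false calls. All groups entered 1 fit per class. Genes of the lists were named by a rule: per list, at most the 4 of smallest adjusted p among those called in a restriction against old ad libitum, and with no call the 2 of highest level. "Beyond the spread" means that the mean difference of log2(CPM + 1) between 2 classes within libraries exceeded its SD. Intervals are exact Poisson at 95%, and a count of 0 allows 3 counts. Alternatives were other tools, filters, covariates, clusterings and libraries left out, and those for list genes were added after the data had been seen.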

Additional observations from a re-analysis of the deposited data

Results flagged for a closer look

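For Phyhd1, the groups of a comparison did not overlap in several classes, and the direction of the difference was not the same in all of them. In CA3-like nuclei, old ad libitum library 4 (19 nuclei) and long-term library 4 (17 nuclei) were too small to be used. The difference between the classes was not tested in any of these cases, and the oligodendrocyte-like values were used in the choice of the genes. Under acute restriction Phyhd1 was below old ad libitum in CA3-like (-0.52 ± 0.25, SE) and in granule-like nuclei (-0.58 ± 0.18, SE), and above it in oligodendrocyte-like nuclei (3.01 ± 0.29, SE). Of all genes, 10.2% and 8.34% were lower without overlap in the former classes, and 9.2% higher in the latter. Between long-term and acute restriction, Phyhd1 was lower in oligodendrocyte-like (-1.50 ± 0.23, SE, beside 2.69% of genes) and higher in CA3-like nuclei (0.54 ± 0.22, SE, beside 2.98% of genes). Between old and young ad libitum, it was lower in microglia-like (-0.56 ± 0.23, SE, beside 7.17% of genes) and higher in CA1-like (0.28 ± 0.23, SE, beside 13.3%) and astrocyte-like nuclei (0.39 ± 0.28, SE, beside 9.63%). Outside oligodendrocyte-like nuclei, none of these Phyhd1 differences passed edgeR's adjusted threshold. No single library stood out in the 20 groups of 4 libraries that could be checked for one. All of these were long-term groups, so acute, old ad libitum and young groups were not checked.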

How the results depend on the processing

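Over 23 alternatives, the acute differences in oligodendrocyte-like nuclei ran from 2.56 to 3.35 for Phyhd1, 2.13 to 2.79 for Pdk4, 2.41 to 2.76 for Plin4 and 3.09 to 3.55 for Hif3a (0.97 to 1.35 for Cpt1a), and the order old ad libitum, long-term, acute held for 4 genes in each. The number called under acute restriction was 4 in every alternative. Under long-term restriction it was 1 with DESeq2, which gave no adjusted p for Phyhd1, Pdk4, Plin4 and Cpt1a and so could call Hif3a only. It was also 1 with the depth covariate, and 0 to 2 with 1 library left out. Between the restrictions it was 1 with DESeq2 and with the depth covariate, and 1 to 4 with 1 library left out. Between old and young ad libitum it was 1 with a term for number 1, and 0 to 1 with 1 library left out. In other classes the 1 call under acute restriction became 0 (replicate block, depth covariate, and DESeq2, which gave no adjusted p for the gene called), 2 (no filter) or 3 (without the libraries numbered 1), and 0 to 1 with 1 library left out. Between the restrictions 0 became 1 (newer quasi-likelihood, no filter, replicate block, term for number 1, without the libraries numbered 1), and 0 to 1 with 1 library left out. The cause of these shifts was not tested. Old minus young changed sign for Phyhd1 (-0.0049 with the replicate block, -0.46 with the depth covariate, -0.14 to 0.98 with 1 library left out, lowest without young library 2) and for Cpt1a (-0.48 to 0.051 with 1 library left out, highest without young library 2).

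The number of list genes called under acute restriction, 8, became 4 with DESeq2, which gave no adjusted p for 40 list genes. It was 0 with the depth covariate, up to 11 in the other alternatives, and 2 to 9 with 1 library left out. Under long-term restriction 0 became 0 to 1 with 1 library left out. Between the restrictions 0 became 3 (no filter, without the libraries numbered 1), 2 (term for number 1) or 1 (replicate block), and 0 to 3 with 1 library left out. Between old and young ad libitum 2 became 1 (DESeq2), 4 (no filter) or 0 (depth covariate), and 0 to 2 with 1 library left out. Of all genes, 194, 28, 12 and 712 were called (acute, long-term, between the restrictions, old against young). These were 212, 37, 13 and 784 with the newer quasi-likelihood, 110, 21, 3 and 334 with DESeq2, 381, 132, 52 and 1186 with no filter, 329, 138, 33 and 1086 with the replicate block, 326, 76, 26 and 1078 with a term for number 1, 253, 39, 35 and 906 without the libraries numbered 1, and 38, 5, 6 and 4 with the depth covariate.

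In oligodendrocyte-like nuclei, same-numbered libraries had deviations correlated above 0.1 in 11 of 16 pairs (median 0.121), against 11 of 47 pairs with different numbers (median -0.0747). The 6 pairs of number 1 ran from 0.124 to 0.182 there, and higher in precursor-like (0.224 to 0.392), astrocyte-like (0.245 to 0.532) and granule-like nuclei (0.363 to 0.780), so the libraries numbered 1 deviated together. Pairs of number 2 were above 0.1 in 0 of 6 cases in precursor-like, 1 of 6 in astrocyte-like, 2 of 6 in granule-like and 3 of 6 in oligodendrocyte-like nuclei. By class, 4 to 8 libraries correlated best with one of their own number. Since not every pair was above 0.1 in any class, the numbers were not taken to pair the libraries, and number 1 was also fitted as a term and left out. Under acute restriction the call of Hif3a in precursor-like nuclei ended with the replicate block (1.72, edgeR adjusted p = 0.0782) and held with the term (2.34, adjusted p = 0.000244) and without number 1 (2.30, adjusted p = 0.000883).

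Depth limits the values of young library 1 (47 nuclei, 0 to 2 UMIs per gene) and of Angptl4 and Cpt1a in this class.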

Other observations

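In fibroblast-like nuclei, a class too small to test, Hif3a was higher in the pooled counts of the restricted groups. It had 70.7 CPM under acute restriction (36 UMIs) and 51.8 under long-term restriction (47 UMIs), against 12.8 in old ad libitum (5 UMIs) and 5.49 in young nuclei (1 UMI). These are sums over libraries with no replicate check. Of the old ad libitum nuclei, 76 came from library 1, which stood apart above, and 9 and 8 from libraries 2 and 4.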
